A study of Homo sapiens with 4 samples.

Results

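The actin cytoskeleton genes described here are 10 genes whose products form, coat, bundle or move actin filaments, several of them abundant in smooth muscle: the transgelins TAGLN and TAGLN2, the tropomyosins TPM1, TPM2, TPM3 and TPM4, smooth muscle actin ACTA2, the calponins CNN1 and CNN2, and the myosin light chain MYL9. They were taken by symbol from 19732 gene symbols, and all 10 were found, with 81 of 79989 listed transcripts. The 10 were picked with the values of the A549 libraries in view. Their levels and differences are therefore given as a description, and no test was made on them.

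Tropomyosins are coiled-coil dimers that lie end to end along the actin filament and control access of myosin and other partners. The 4 genes make several proteins through alternative promoters, internal exons and last exons, and which of these a gene uses differs between them. Transgelin and calponin are related actin-binding proteins that stabilise stress fibres, and MYL9 is a regulatory light chain whose phosphorylation switches myosin on. In smooth muscle and in contractile fibroblasts many of these genes are driven by serum response factor (SRF) with its actin-sensing partners, the myocardin-related transcription factors (MRTF), and by TGF-beta. RBM4 is an RNA-binding protein known to favour muscle-type exons of tropomyosin transcripts, against the repressor PTBP1.

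The study compared a control culture with an RBM4 knockdown culture in each of 2 human lung cancer cell lines, A549, a lung adenocarcinoma line, and H1299, a non-small cell lung carcinoma line. H1299 was not analysed here. A549 is described, with 1 control library and 1 RBM4 knockdown library, each made from total RNA of cultured cells with an Illumina TruSeq kit that does not mark strand. The nature of the control, and the time after knockdown, are not given in the sources used here. With 1 library per group no value has a replicate check, and the assignment of each column to its group rests on the column's name.

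RBM4 stood at 59.4 FPKM in control cells and at 30.6 FPKM after knockdown, or 51.5% of its control level (FPKM is a fragment count normalised to transcript length and library depth). The steps between low values of single-transcript genes placed the depth near 20100000 mapped fragments in control cells and near 19500000 after knockdown. Where a pair of values follows a gene or transcript, the control library comes first. Epithelial keratins KRT8 (1646 and 888 FPKM) and KRT18 (1853 and 912 FPKM) were abundant in both libraries. The 9 markers of A549 and epithelial identity summed to 7251 and 3227 FPKM. That sum includes the aldo-keto reductases AKR1C2 (2328 and 671 FPKM) and AKR1B10 (1414 and 745 FPKM). Of 6 measured, 2, KRT18 and AKR1C2, were lower by at least 2-fold in the knockdown library (1 after rescaling, median centring or leaving out mitochondrial genes). Among all 12230 genes that reached 1 FPKM in either library, 2.25% were lower by that much. The marker list was chosen with earlier results of these data known. EPCAM (2.74 and 2.75 FPKM) and CDH1 (7.70 and 6.54 FPKM) were low and differed little. The part of these markers in the results was not tested. SFTPB and NKX2-1, genes of differentiated lung epithelium, were listed at 0 in both. Mitochondrial genes made up 18.6% of summed FPKM in control cells and 21.7% after knockdown. In bulk RNA, more expressing cells and more RNA per cell cannot be told apart.

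In the control library the 4 tropomyosins and TAGLN2 were highly expressed, and the genes most restricted to smooth muscle were low. TPM4 was highest at 308 FPKM, followed by TPM1 at 295 FPKM, TAGLN2 at 243 FPKM, TPM3 at 226 FPKM and TPM2 at 199 FPKM. CNN2 stood at 57.5 FPKM, ACTA2 at 10.9 FPKM, TAGLN at 8.20 FPKM and MYL9 at 2.93 FPKM, and CNN1 was listed at 0. In the knockdown library TPM1 was highest at 646 FPKM, before TPM4 at 548 FPKM, and TAGLN, at 186 FPKM, lay close to TPM3 at 201 FPKM. No spread is known for either library, so which neighbours in these orders differ cannot be said. The share of the 10 genes in total FPKM was 0.201% in control cells and 0.367% after knockdown.

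**Figure D1:**
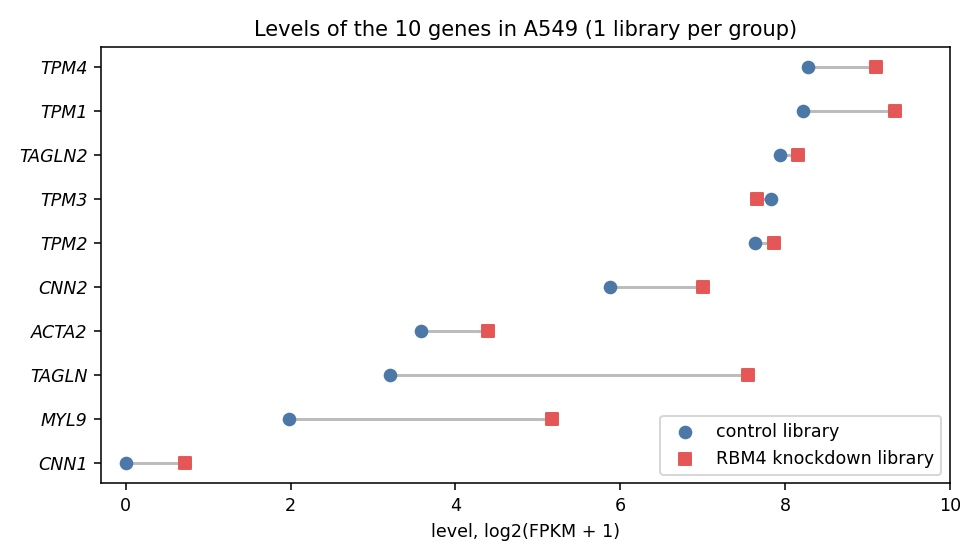
Levels of the 10 genes in A549 on a log2(FPKM + 1) axis. Circles are the control library and squares the RBM4 knockdown library, 1 library each, ordered by control level. TAGLN and MYL9 have the longest connecting lines, and the square of TPM3 lies left of its circle, a direction that turns when the highest transcript of each gene is used.

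Of the 10 genes, 9 reached 1 FPKM in either library and were compared, and CNN1 did not. Each difference is log2(FPKM + 1) after knockdown minus that in control cells, so that 1 stands for 2-fold and changes of low genes are understated. TAGLN, MYL9, CNN2 and TPM1 were higher by at least 2-fold, which is 4 of 9, and none was lower by that much. Among all 12230 genes that reached 1 FPKM, 4.96% were higher by at least 2-fold and 2.25% were lower. Of the 9, 8 lay above 0, against 46.6% of all genes. Since the genes were chosen on this contrast, these counts say nothing beyond the list itself. The nearest gene inside the 2-fold line was TPM1 at 1.13, and the nearest outside it was TPM4 at 0.83. The median of the 9 differences was 0.83, against -0.04 for all genes.

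Higher genes made up 68.8% of all 2-fold genes, or 82.2% once mitochondrial genes were dropped, which moved the all-gene median from -0.04 to 0.11. TAGLN, MYL9, CNN2 and TPM1 were each past 2-fold at all 7 alternative settings of the processing. Settings that change only the filter on low values could not move these differences.

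**Figure D2:**
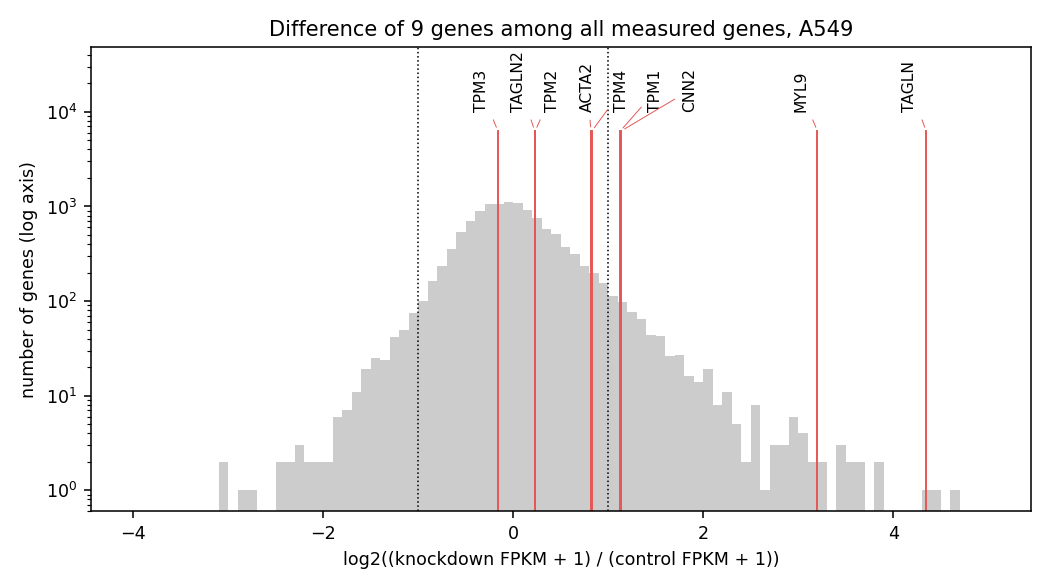
Histogram of the log2 difference, knockdown over control, of all 12230 measured genes, with the number of genes on a log axis. Red lines mark the 9 compared genes and dotted lines mark 2-fold. TAGLN at 4.34 and MYL9 at 3.20 lie in the right tail, and TAGLN2, TPM2 and TPM3 lie near the middle.

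TAGLN, the transgelin also called SM22-alpha, which stabilises actin bundles and is a classic early marker of smooth muscle, differed most. TAGLN (ENSG00000149591, chromosome 11, 117199321 to 117204782, plus strand, GRCh38) stood at 8.20 FPKM in control cells and at 186 FPKM after knockdown. The difference was 4.34 on the log2 scale. Without a pseudocount the ratio was 22.7, and counting error alone, from about 144 and 2941 fragments, placed it between 19.2 and 26.8 (95%). The paralog TAGLN2, a transgelin made in most cell types (ENSG00000158710, chromosome 1, 159918107 to 159925732, minus strand), had 243 and 284.3 FPKM, a difference of 0.22. TAGLN held 3.26% of the FPKM of both transgelins in control cells and 39.5% after knockdown, so TAGLN2 was the more abundant in each.

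The transcripts of TAGLN differed in the same direction. Of 7 listed, 4 reached 1 FPKM in either library, and all 4 were higher in the knockdown library. TAGLN-202 had 5.09 and 104 FPKM, and TAGLN-206 had 1.91 and 73.6 FPKM, so that TAGLN-206 held 23.4% and 39.6% of the gene. These 4 share their coding exons with each other and code for the same 201 residues, and they differ outside the coding sequence. TAGLN exons overlap those of PCSK7 on the opposite strand, and reads from the overlap cannot be assigned without strand. PCSK7 had 7.66 and 9.65 FPKM. Of TAGLN2, TAGLN2-203 held 93.6% and 97.6%. The short TAGLN2-201 had 12.7 FPKM in control cells and was listed at 0 after knockdown, and both models code for the same 199 residues.

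MYL9, the regulatory light chain of smooth muscle and non-muscle myosin, had the next largest difference. MYL9 (ENSG00000101335, chromosome 20, 36541484 to 36551447, plus strand) stood at 2.93 FPKM in control cells and at 35.1 FPKM after knockdown, a difference of 3.20. The ratio without a pseudocount was 11.97, with a counting interval of 9.37 to 15.3 from about 69 and 882 fragments. The non-muscle regulatory light chains MYL12A, at 209 and 301 FPKM, and MYL12B, at 196 and 204 FPKM, remained far more abundant. MYL9 held 0.72% of the FPKM of the 3 genes in control cells and 6.50% after knockdown.

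Both MYL9 transcripts were higher in the knockdown library. MYL9-201, which codes for 172 residues, had 0.655 and 10.3 FPKM, and MYL9-202, which codes for 118 residues, had 2.28 and 24.8 FPKM. The share of MYL9-201 was 22.3% and 29.4%. In their coding sequence the models differ by 1 exon of 162 bases (chr20:36548032-36548193, GRCh38, plus strand, from GENCODE), shown because it sets the lengths of the 2 proteins apart. Their transcripts, of 2821 and 1024 bases, also differ in non-coding sequence, so the split does not rest on this exon alone.
MYL9 skipped exon: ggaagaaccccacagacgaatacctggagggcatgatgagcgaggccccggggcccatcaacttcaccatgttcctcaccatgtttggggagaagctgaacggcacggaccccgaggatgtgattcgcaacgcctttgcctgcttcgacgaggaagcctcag

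ACTA2, smooth muscle alpha-actin, the main thin-filament actin of smooth muscle and of myofibroblasts, was low in both libraries. ACTA2 (ENSG00000107796, chromosome 10, 88935074 to 88991339, minus strand) stood at 10.9 FPKM in control cells and at 20.01 FPKM after knockdown, a difference of 0.82, short of 2-fold. The ratio without a pseudocount was 1.83, with a counting interval of 1.53 to 2.20. The full-length model ACTA2-201, of 377 residues, had 4.88 and 9.21 FPKM, and the incomplete model ACTA2-202 had 5.39 and 9.89 FPKM. The split between them hardly moved, with 44.6% and 46.0% in ACTA2-201. The cytoplasmic actins ACTB, at 2767 and 2173 FPKM, and ACTG1, at 4368 and 5866 FPKM, exceeded it in both libraries. ACTA2 exons overlap those of FAS on the opposite strand, which had 8.37 and 10.6 FPKM, so the low ACTA2 values are uncertain to that extent.

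CNN1, the smooth muscle calponin that restrains actin-activated myosin and a late marker of smooth muscle (ENSG00000130176, chromosome 19, 11538717 to 11550323, plus strand), was listed at 0 in control cells and at 0.647 FPKM after knockdown. That value came from about 8 fragments spread over models of which the full-length CNN1-201 had 0.179 FPKM, and no fold is given. CNN2, the calponin of many non-muscle cells (ENSG00000064666, chromosome 19, 1026581 to 1039068, plus strand), had 57.5 and 128 FPKM, a difference of 1.14. Its ratio without a pseudocount was 2.22, with a counting interval of 2.11 to 2.34. The full-length CNN2-201, of 309 residues, had 46.6 and 102 FPKM and held 81.0% and 79.7% of the gene. CNN2-202, of 270 residues, had 6.97 and 16.5 FPKM. All 5 CNN2 transcripts that reached 1 FPKM were higher in the knockdown library. The annotation lists 11 pseudogenes named after CNN2, so part of its level may be shared with near-identical copies.

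The tropomyosins did not differ as a block: TPM1 and TPM4 were higher in the knockdown library, and TPM2 and TPM3 differed little. TPM1 (ENSG00000140416, chromosome 15, 63042632 to 63071915, plus strand) had 295 and 646 FPKM, a difference of 1.13 and a ratio of 2.19 (counting interval 2.13 to 2.24). TPM4 (ENSG00000167460, chromosome 19, 16067021 to 16103005, plus strand) had 308 and 548 FPKM, a difference of 0.83 and a ratio of 1.78 (1.74 to 1.82). TPM2 (ENSG00000198467, chromosome 9, 35681992 to 35690121, minus strand) had 199 and 233 FPKM, a difference of 0.23 and a ratio of 1.17 (1.12 to 1.23).

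TPM3 (ENSG00000143549, chromosome 1, 154155304 to 154194648, minus strand) had 226 and 201 FPKM, a difference of -0.16, which was 0.07 when only the highest transcript of each gene was used. The annotation lists 8 pseudogenes named after TPM3, which could share reads with it. The summed FPKM of the 4 genes was 1028 in control cells and 1628 after knockdown. TPM1 held 28.7% and 39.7% of that sum, and TPM3 held 22.0% and 12.4%.

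Tropomyosin proteins come in a long class, typical of stress fibres and muscle, and a short class, made from a promoter inside the gene, told apart here by coding length. Long-class transcripts had 402 FPKM in control cells and 719 FPKM after knockdown, and short-class transcripts had 407 and 571 FPKM. Among transcripts with a complete coding sequence the long class held 42.0% and 48.2%. All TPM2 transcripts with a complete coding sequence were long, and TPM3 was almost wholly short or of other length. In TPM1 the long class held 70.2% and 73.5%, and without TPM1-208, a short form listed at 0 after knockdown, the control value was 77.6%, which turned the direction. Over the 4 genes the control value without it was 43.2%.

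**Figure D3:**
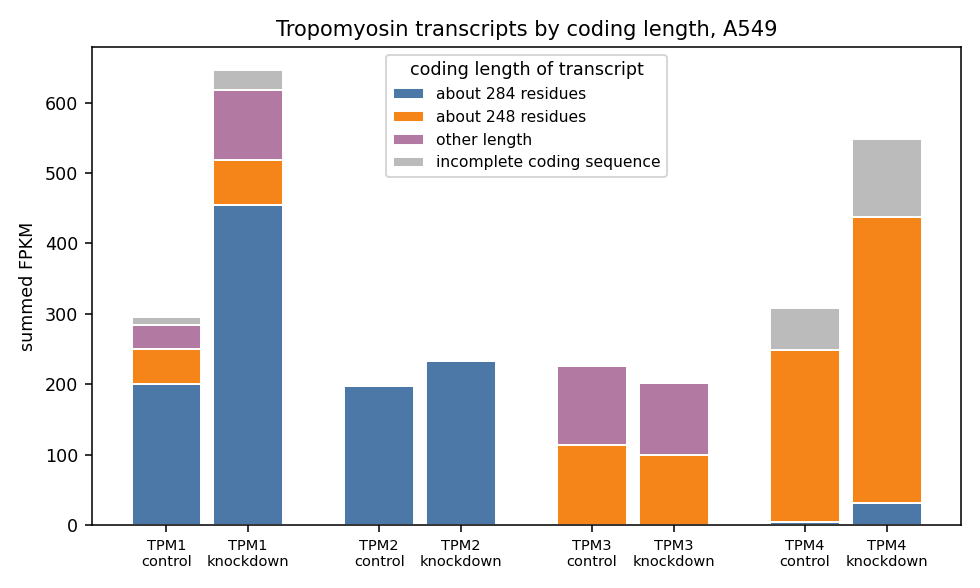
Summed FPKM of tropomyosin transcripts by the coding length of the transcript, for each gene in the control and knockdown library of A549. The TPM1 bars differ mainly in their long part, 199.8 and 454 FPKM, and the TPM4 bars mainly in their short part, 245 and 407 FPKM.

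TPM4 is best known for its short, non-muscle protein, and TPM4-201, the short form, had 245 and 407 FPKM. The long form TPM4-202, made from the distal promoter, had 4.48 and 31.1 FPKM, a transcript difference of 2.55 on the log2 scale against 0.73 for TPM4-201. The distal first exon therefore held 1.797% of the TPM4 FPKM with either first exon in control cells and 7.09% after knockdown. The long form came from about 105 and 698 fragments, and how Cufflinks divided reads over the exons that both forms share is not known.

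SRF binds a sequence known as the CArG box. RefSeq windows from 250 bases before to 50 bases after the start site were searched for its strict form. That form is CC, then A or T only, then GG, 10 bases in all. Windows existed for 8 of the 10 genes, TAGLN and MYL9 not among them, and the window of the TPM1 distal start was not among the 15 either. The box was found in 2 of these 15 windows, that of CNN2 and that of the distal start of TPM4, against 1.29% of all 35116 windows. In CNN2 it was CCTTATAAGG, with its first base at position -89 from the start site, and in TPM4 it was CCAAATAAGG, with its first base at -173. The pattern is the same on both strands, and a match is a description of these letters. Boxes that depart from the strict form were not searched for, so a window without a match may still hold one. Both stretches are shown, outside annotated exons, with the box in capitals, because they lie at the starts of CNN2 and of the long TPM4 form (CNN2 at chr19:1026358-1026580 and TPM4 at chr19:16067307-16067506, GRCh38.p14, plus strand, from RefSeq).
CNN2 promoter stretch: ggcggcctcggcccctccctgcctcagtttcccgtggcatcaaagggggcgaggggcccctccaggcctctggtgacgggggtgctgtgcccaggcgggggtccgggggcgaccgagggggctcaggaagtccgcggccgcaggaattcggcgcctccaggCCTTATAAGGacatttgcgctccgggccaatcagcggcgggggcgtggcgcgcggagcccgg
TPM4 promoter stretch: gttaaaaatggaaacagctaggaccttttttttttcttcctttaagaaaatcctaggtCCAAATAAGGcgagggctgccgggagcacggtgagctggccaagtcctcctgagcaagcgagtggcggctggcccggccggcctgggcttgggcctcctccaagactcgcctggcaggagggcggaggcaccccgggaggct

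TPM1 exons overlap 2 antisense genes, whose reads cannot be told apart from its own without strand. Exons of CNN2, TPM4 and ACTA2 also overlap opposite-strand genes that have no FPKM value here, so the same limit holds for them. Of the 19 listed transcripts of TPM1, 13 reached 1 FPKM in either library, with 10 higher and 3 lower after knockdown. TPM1-206, a long form, was the main transcript in both libraries, at 176 and 430 FPKM, or 59.7% and 66.5% of the gene. TPM1-208, a short form, had 27.4 FPKM in control cells and was listed at 0 after knockdown. Other short forms were higher after knockdown, with TPM1-216 at 15.3 and 47.1 FPKM and TPM1-204 at 6.90 and 17.3 FPKM. TPM1-201 and TPM1-202 had similar values in both libraries, at 13.3 and 12.5 FPKM and at 7.79 and 8.30 FPKM.

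TPM1 and TPM2 each choose between exons of the same length, and these pairs decide which tropomyosin is made. The upstream second exon of TPM1 (chr15:63043706-63043831) is the exon of the smooth muscle isoform, and the downstream second exon (chr15:63044027-63044152) is that of other tissues. The sixth exon (chr15:63061198-63061273 or chr15:63061713-63061788) lies in the middle of the coiled coil. The upstream last coding exon (chr15:63064064-63064143) is used in striated muscle, and the downstream one (chr15:63071090-63071169) in smooth muscle and other cells. All are on the plus strand of GRCh38 and were read from GENCODE transcripts. They are shown because the isoform shares below group transcript models by the exon of a pair that they hold. Each share sums the FPKM of whole transcript models, and reads within the exons were not counted. Capitals mark the bases that differ between the 2 exons of a pair, aligned without gaps.
TPM1 upstream second exon: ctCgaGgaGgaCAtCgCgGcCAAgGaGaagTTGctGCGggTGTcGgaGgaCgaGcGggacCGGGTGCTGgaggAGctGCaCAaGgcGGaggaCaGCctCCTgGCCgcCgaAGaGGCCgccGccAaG
TPM1 downstream second exon: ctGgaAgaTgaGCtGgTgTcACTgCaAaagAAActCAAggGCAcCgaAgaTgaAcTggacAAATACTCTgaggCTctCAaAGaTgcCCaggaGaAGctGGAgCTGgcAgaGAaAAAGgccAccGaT
TPM1 upstream sixth exon: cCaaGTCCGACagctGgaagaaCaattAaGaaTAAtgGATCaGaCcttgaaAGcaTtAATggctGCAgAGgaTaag
TPM1 downstream sixth exon: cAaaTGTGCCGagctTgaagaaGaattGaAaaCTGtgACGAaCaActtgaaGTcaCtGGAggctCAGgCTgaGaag
TPM1 upstream last exon: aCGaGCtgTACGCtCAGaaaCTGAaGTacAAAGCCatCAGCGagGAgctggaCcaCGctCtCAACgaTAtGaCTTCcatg
TPM1 downstream last exon: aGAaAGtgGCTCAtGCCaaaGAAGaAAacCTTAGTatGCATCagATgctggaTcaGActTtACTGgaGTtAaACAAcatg

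The exons of a pair share 49.2% of bases for the second exon, 56.6% for the sixth and 42.5% for the last. Models with only the upstream, smooth muscle second exon had 13.3 and 12.8 FPKM, nearly all of it TPM1-201. Models with only the downstream exon had 187 and 442 FPKM. The upstream share among these models therefore stood at 6.65% and 2.82%. TPM1-205, a model that holds both second exons, was left out of these values, and it had 17.6 and 47.1 FPKM. With TPM1-205 counted, models holding the upstream exon had more FPKM in the knockdown library than in the control library, as did models with the downstream exon. That is a statement on FPKM, and a share with TPM1-205 counted was not computed. The downstream sixth exon held 19.6% and 21.0%, but without TPM1-208 the control value was 21.7%, so this direction turned as well. The upstream last exon, that of striated muscle, held 8.69% and 9.79%, with a control value of 9.69% without TPM1-208. Its FPKM came from TPM1-216, a short form, and TPM1-202, a long form. Of the whole gene TPM1-216 held 5.18% and 7.28%, and TPM1-202 held 2.64% and 1.28%. The downstream last exon held 88.7% and 87.2%, with a control value of 87.4% without TPM1-208.

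The distal first exon, which starts the long forms, held 80.9% of TPM1 in control cells and 87.5% after knockdown. Without TPM1-208 the control value was 89.5%, so that the direction of this shift turned on that 1 transcript. In TPM2 the upstream sixth exon (chr9:35685064-35685139, minus strand) held 16.5% and 21.9% against the downstream one (chr9:35684732-35684807), and the pair shares 52.6% of bases. The upstream last exon of TPM2, held by TPM2-202 alone, stood at 6.49% and 3.04%. The main TPM2 transcript, TPM2-201, had 152 and 175 FPKM and joins the downstream sixth exon to the downstream last exon. TPM2-203, with the upstream sixth exon, had 30.4 and 49.3 FPKM.
TPM2 upstream sixth exon: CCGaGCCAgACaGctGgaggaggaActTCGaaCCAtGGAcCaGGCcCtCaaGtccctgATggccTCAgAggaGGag
TPM2 downstream sixth exon: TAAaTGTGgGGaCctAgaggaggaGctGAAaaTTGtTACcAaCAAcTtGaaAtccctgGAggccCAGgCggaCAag

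**Figure D4:**
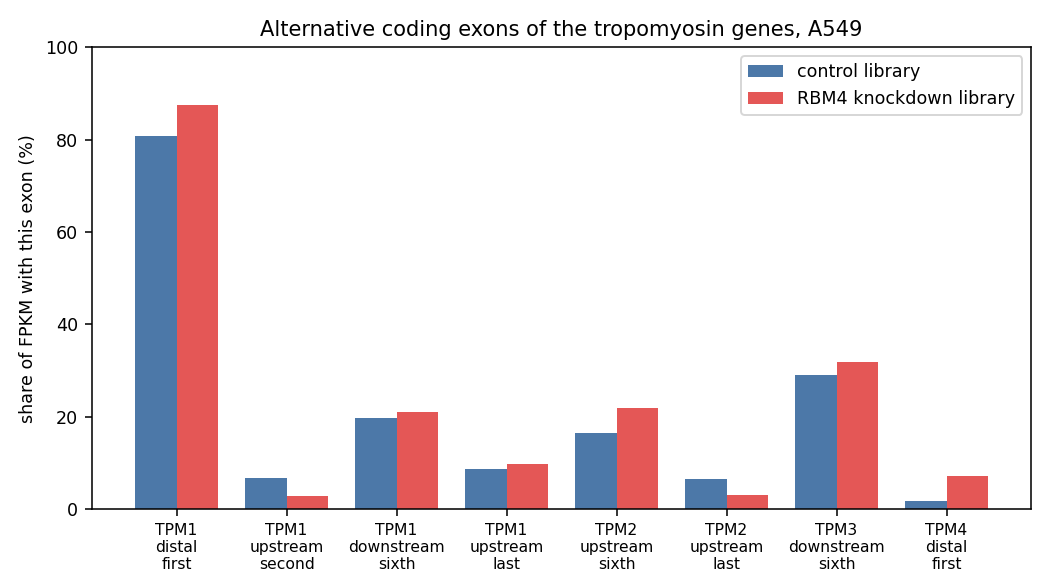
Share, in percent of FPKM, of the named alternative coding exon among transcripts that hold only 1 exon of its set, in the control and knockdown library of A549. TPM1-205, which holds both second exons of TPM1, is left out of the second exon share. The distal first exon of TPM1 has the largest share of the exons plotted, 80.9% and 87.5%, and the TPM4 distal first exon stands at 1.797% and 7.09%.

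In TPM3 the transcripts fell into several forms with no single main one. TPM3-207, of 223 residues, had 66.0 and 69.5 FPKM, and TPM3-206, a short-class form, had 65.0 and 63.7 FPKM. TPM3-208, of 232 residues, had 45.9 and 30.6 FPKM, and TPM3-205, also short-class, had 36.6 and 29.1 FPKM. Of the 6 transcripts that reached 1 FPKM, 1 was higher and 5 were lower in the knockdown library. The downstream sixth exon held 28.9% and 31.8%.

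Other genes of smooth muscle contraction, from a list of 14 outside the 10, were unevenly expressed. Of these, 8 reached 1 FPKM in either library, with 4 higher and none lower by 2-fold and a median difference of 0.98. Among all measured genes 4.96% were higher and 2.25% lower by 2-fold, the shares to set beside the counts of each list. This and the other gene lists were chosen with earlier results of these data known, so their counts say nothing beyond the lists themselves. With no filter on low values the median of the 14 was 0.26. ACTG2, the gamma-actin of enteric smooth muscle, was listed at 0 in control cells and at 4.54 FPKM after knockdown. PDLIM7, an actin-associated scaffold, had 32.4 and 130.1 FPKM (1.97). SYNPO2 had 1.13 and 0.984 FPKM (-0.10), and MYLK, the kinase that phosphorylates MYL9 and its relatives, had 17.6 and 11.2 FPKM (-0.61). MYH11, the smooth muscle myosin heavy chain, had 0.0086 and 0.0268 FPKM, and desmin, DES, was listed at 0 and at 0.645 FPKM.

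Markers of smooth muscle cells and pericytes were near 0 apart from NOTCH3 and ACTG2: of 9 outside the 10 genes, 2 reached 1 FPKM, and their summed level was 8.46 and 15.6 FPKM. Of 9 skeletal and cardiac muscle markers, 7 were listed at 0 in both libraries, and the sum was 6.44 and 2.54 FPKM, nearly all of it MB. Troponin genes outside these 9 were uneven. TNNT1 had 82.8 and 98.7 FPKM and TNNI3 had 3.04 and 5.63 FPKM, and TNNI1, TNNI2, TNNC1 and TNNC2 stayed below 1 FPKM. Of 10 fibroblast markers 3 reached 1 FPKM, with a sum of 22.7 and 46.0 FPKM. TWIST2, the highest of them in control cells, stood at 13.98 and 9.60 FPKM, THY1 at 5.73 and 26.0 FPKM, and COL1A1 at 2.61 and 9.47 FPKM. DCN and POSTN were listed at 0 in both libraries and COL1A2 had 0 and 0.00995 FPKM. Endothelial markers summed to 3.04 and 18.9 FPKM, mostly ESAM, with VWF, KDR and CLDN5 at 0, and blood markers to 9.62 and 30.9 FPKM, mostly CD68, with CD3E and HBB at 0. THY1, COL1A1, ESAM and CD68 were higher in the knockdown library along with TAGLN and MYL9, TWIST2 was lower, and their part in the result was not tested.

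SRF and MRTF factors and their regulators had a median near that of all genes. All 13 reached 1 FPKM, with 2 higher and none lower by 2-fold and a median of 0.03, which was -0.03 with a minimum of 5 FPKM, where 1 was higher by 2-fold. FHL2, an SRF cofactor, had 20.8 and 59.2 FPKM (1.46), and MYOCD, the muscle coactivator of SRF, had 1.502 and 4.33 FPKM (1.09). ELK1 had 15.1 and 11.98 FPKM (-0.31), and ELK4 had 14.7 and 10.05 FPKM (-0.51). SRF itself had 8.61 and 10.9 FPKM (0.31). MKL1 (MRTFA) had 23.7 and 21.1 FPKM (-0.16).

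Of 18 SRF and MRTF targets outside the 10 genes, 6 were higher and 1 was lower by 2-fold, with 16 above 0 and a median of 0.73. Among all measured genes 4.96% were higher and 2.25% lower by 2-fold, and 46.6% lay above 0. JUNB, an immediate-early factor, had 52.1 and 177 FPKM (1.75), and CYR61, a matricellular protein, had 38.1 and 122 FPKM (1.65). The other end held ACTB (-0.35) and ANKRD1, at 17.2 and 3.40 FPKM (-2.05). FHL2 and SRF stand in this list and in the one before.

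All 12 TGF-beta response genes lay above 0, with 7 higher by 2-fold and a median of 1.28. The shares over all measured genes were 46.6% above 0 and 4.96% higher by 2-fold, and this list too was chosen with earlier results known. COL4A1, a basement membrane collagen among the highest of the list, had 13.98 and 121 FPKM (3.03). The ligand TGFB2, at 29.3 and 33.1 FPKM, and the receptor TGFBR2, at 50.3 and 56.8 FPKM, both had a difference of 0.17. Over the 2 libraries genes near to TAGLN, by Euclidean distance between log2(FPKM + 1) profiles centred on their mean, were ITGB3 (distance 0.20), CLDN4 (0.32), TNS1 (0.35) and IL11 (0.47). With 2 libraries this likeness holds no more than the size of the difference.

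Of 13 myosin chains other than MYL9 and their kinases and phosphatases, none was past 2-fold in either direction, but 1 was higher by 2-fold after rescaling to the same total or leaving out mitochondrial genes. Their median was 0.06, from MYH9, the main non-muscle myosin heavy chain, at 138 and 261 FPKM (0.91), and the light chain MYL6, at 999 and 1587 FPKM (0.67), to PPP1R14B (-0.52) and MYLK (-0.61). Among tropomyosin partners 8 of 17 reached 1 FPKM, with 1 higher and none lower by 2-fold and a median of 0.36, or 0.01 with no filter. The count was 2 with a pseudocount of 0.1, after rescaling, without mitochondrial genes or by the highest transcript of each gene. CALD1, caldesmon, had 73.6 and 155 FPKM (1.07), and the filament-capping gene TMOD1 had 1.44 and 3.69 FPKM (0.94). TMOD3 (-0.09) and CFL1, cofilin, at 809.9 and 805.5 FPKM (-0.01), were lowest.

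Splicing regulators reported for tropomyosin exons, RBM4 included, were mostly lower, without any past 2-fold unless the highest transcript of each gene was used, where 2 were lower by 2-fold. Of 18, 15 reached 1 FPKM, and of these 2 lay above 0, against 46.6% of all measured genes. The median was -0.35. It was -0.20 with mitochondrial genes left out and -0.22 with the highest transcript of each gene. The highest were PTBP3 at 57.8 and 96.7 FPKM (0.73) and MBNL2 at 20.2 and 29.2 FPKM (0.51), and the lowest were HNRNPF at 154 and 101 FPKM (-0.61) and RBM4 itself (-0.93). PTBP1, the repressor of muscle-type tropomyosin exons, had 193 and 138 FPKM (-0.48).

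**Figure D5:**
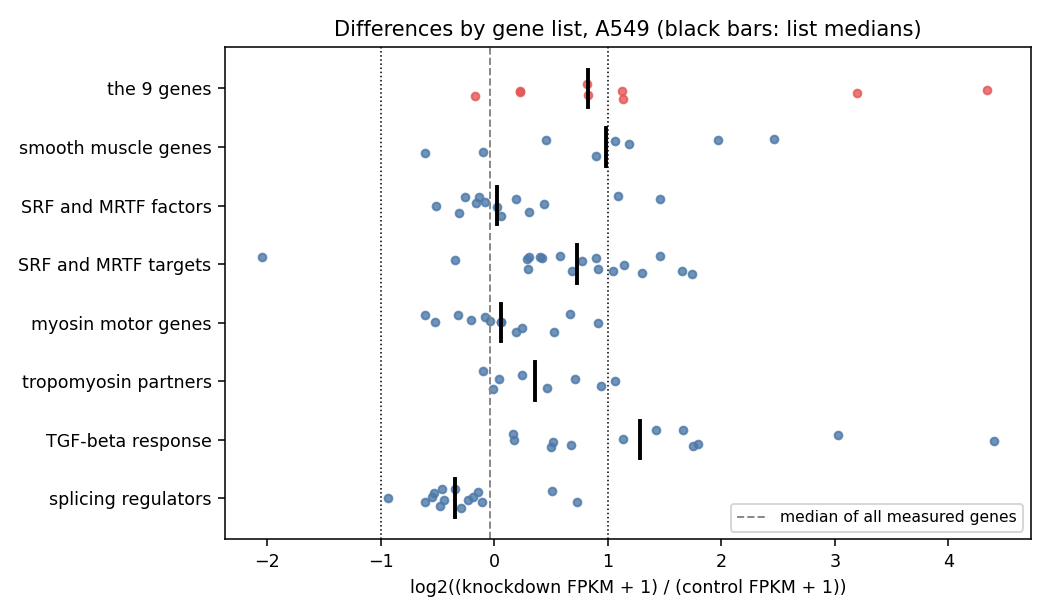
Log2 difference, knockdown over control, of each measured gene by list, with black bars for list medians, a dashed line for the median of all genes and dotted lines for 2-fold. Marker lists are not plotted. Of the lists plotted, the TGF-beta response and smooth muscle lists have the highest medians, 1.28 and 0.98, and the splicing regulators the lowest, -0.35. The second place rests on the filter. With no filter on low values the smooth muscle median was 0.26, below that of the SRF and MRTF targets, 0.73.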

How the data were processed

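Messenger RNA of A549 control and RBM4 knockdown cultures was measured, 1 library each. Per the submitters' processing notes, the authors used CASAVA 1.8.2, TopHat and Cufflinks with build hg38. Annotation release and read filters are not given in the sources used here. What the authors deposited is 1 FPKM value for each protein-coding transcript. The column named only for the cell line was read as control, and the one with a number added as knockdown, a number that is in no label. The H1299 table has 3 value columns whose names match no label, and they were not used.

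Transcripts were summed per symbol with pandas 2.3.3. Genes at 1 FPKM or more in either library were compared on log2(FPKM + 1). With 1 library per group no test was run. Members and gene lists were chosen with earlier results of these data known. Named genes are all members, RBM4, the 2 highest and 2 lowest of each list, the 5 nearest to TAGLN and transcripts holding at least 10% of a member. A few of these are not reported here. Other names were chosen after values were seen.

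Depth was estimated, after the values were seen, from single-transcript genes over 1500 bases. There 93.4% of low control values and 94.5% of low knockdown values lay within 0.15 of a whole fragment. Without steps, and with no fitting, 30% would. The step size and a length offset were fitted to these same values, so the 30% is not a like comparison. Intervals treat the estimated fragments as counts and cover counting error only. The depth estimate and the 2-fold call were tested on simulated data. Transcript models and exon sequences are GENCODE release 29, to which 80 of 81 member transcripts matched, and promoters are RefSeq, both GRCh38.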

Additional observations from a re-analysis of the deposited data

How the results depend on the processing

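The counts of members past 2-fold, 4 higher and 0 lower, were the same under all 7 alternatives (pseudocount, filters, scalings, highest transcript). Counts over all genes were 607 higher and 275 lower. They were 985 and 418 with a pseudocount of 0.1, and 176 were lower with mitochondrial genes left out. Of 63 member differences recomputed, 44 moved by no more than counting error and 0 changed the sign of a called value. The 44 include those without a filter and with a minimum of 5 FPKM. These settings change only which genes are kept, so they could not move a member's difference. TAGLN ranged from 4.10 to 4.50, MYL9 from 2.98 to 3.54, TPM1 from 1.13 to 1.29 and CNN2 from 1.11 to 1.30. TPM4 ranged from 0.73 to 0.99 and ACTA2 from 0.77 to 0.97, so neither reached 2-fold, and TPM3 ranged from -0.16 to 0.07. Leaving out transcripts under 1 FPKM moved transcript shares by at most 3.17 percentage points. Leaving out TPM1-208, chosen after seeing the data, gave a long-class share of 43.2% in control cells. No paired analysis was possible because each group had 1 library, and no replicate could be left out. The protein identities planned between members and every H1299 result were not run.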
